A study of Homo sapiens with 12 samples.

Results

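Genes of sterol synthesis, of its control and of fatty acid synthesis were followed in gastric cancer cells treated with verteporfin (VP). The set was a list of 33 gene symbols, and every probe that the platform annotation gives to a listed symbol was taken. There were 18 genes of sterol synthesis, 6 of regulation and sterol transport and 9 of fatty acid synthesis. Of the 33 genes, 32 had a probe, against 20046 genes with a probe on the whole array, and they were read by 49 of the 47323 probes. FDFT1 was not analysed here. A gene entered the tests where a probe of it was detected (p under 0.01) on each array of 1 group or more. That held for 28 of the 33 members and for 9696 genes in all. SREBF2, STARD4, FADS1 and FADS2 had a probe but did not pass.

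AGS and MKN45 are human gastric adenocarcinoma cell lines. Each was treated with VP or with its solvent, DMSO, and each of the 4 groups (AGS DMSO, AGS VP, MKN45 DMSO and MKN45 VP) had 3 Illumina HumanHT-12 V4 arrays. Treatment lasted 36 hours by the labels and longer by the methods, and the sources used here give no dose for the arrays. VP is a porphyrin used as a photosensitizer and is known to keep YAP from binding the TEAD transcription factors. Whether the 3 arrays of a group hold separate cultures is not stated, and the p-values therefore measure only an array-to-array spread that may be technical.

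Cells make cholesterol from acetyl-CoA through mevalonate, isoprenoid phosphates, squalene and lanosterol, and make fatty acids from the same acetyl-CoA through malonyl-CoA. Both branches are controlled by the sterol regulatory element-binding proteins (SREBPs), which lie in the membrane of the endoplasmic reticulum bound to the escort protein SCAP. When sterols are plentiful, the INSIG proteins hold SCAP there. When sterols are scarce, SCAP carries the SREBPs to the Golgi, where proteases free the active factor, and the genes of uptake and synthesis are switched on. The SREBP encoded by SREBF2 acts mainly on sterol genes, and the main SREBF1 product of liver acts mainly on fatty acid genes.

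The authors deposited the signals of the probes and a table of their normalized log2 values (the value table), and the tables did not give the same result. Across the 9696 genes, which are not independent replicates, the VP changes of the 2 tables correlated at -0.073 in AGS and at -0.11 in MKN45. The 2 lines differed more than the treatments did in the value table. Arrays of different lines with the same treatment correlated at 0.919 to 0.934 there and arrays of a line with different treatments at 0.985 to 0.992. In the signals the order was the other way around, with 0.958 to 0.975 between lines and 0.922 to 0.951 between treatments. The line labels were checked, after the data were seen, with CDH1 and MET. CDH1 encodes E-cadherin, a protein that AGS is known to lack. MET is the receptor gene that MKN45 is known to carry in many copies. CDH1 RNA was still read in AGS DMSO, at a mean level of 7.30 by the value table and 7.12 by the signals. By the value table, CDH1 was higher in MKN45 DMSO than in AGS DMSO by 3.83 on the log2 scale and MET by 3.72. In the signals these differences were 0.83 and 0.22, so the signal columns labelled MKN45 did not show the high MET of that line. The library labels are therefore used as names only, and each result in the signals that rests on a difference between lines stands beside this check. The value table was normalized by its authors within each line, so its lines are not on one scale. Past row 21197 its values belonged to the probe of the next row, and the names of 26126 rows were moved by 1. Arrays had a median signal of 98.4 to 137, with 14523 to 16571 detected probes. All 5 epithelial marker genes (EPCAM, KRT8, KRT18, KRT19 and CLDN4) were detected on the 12 arrays. Of 6 marker genes of other cells, the collagen gene COL1A1 was detected on 3 arrays and PTPRC, CD3E, PECAM1, COL1A2 and LUM on 0. No marker was used to check the treatment labels. By rank correlation, 2 of 12 value columns lay closest to the signal column of their own name. All AGS VP value columns lay closest to the signals of AGS DMSO replicate 3, and all MKN45 VP ones to MKN45 DMSO replicate 2. The lowest AGS change of all genes was FAT1 in the value table (-2.17) and LIPG in the signals (-2.77). The paper reports FAT1 lowered by VP by western blot and qRT-PCR. Which table gives the VP effect was not tested. Unless the value table is named, levels and changes are those of the signals on the log2 scale, from limma, with p-values adjusted over all genes tested and called under 0.05.

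In the signals scaled by quantiles, most called sterol genes fell with VP and the fatty acid branch split. In AGS, 11 of the 17 tested sterol genes fell and 1 rose, with a median log2 change of -0.67. In MKN45, 8 fell and 3 rose, with a median of -0.33, which was -0.043 when arrays were scaled by a median shift in place of quantiles. Of all genes, AGS had 30% that fell and 26.3% that rose (median -0.032), and MKN45 had 23.1% that fell and 22.9% that rose (median -0.017). Of the 7 tested fatty acid genes, AGS had 3 that fell and 3 that rose (median 0.21), and MKN45 had 2 that fell and 4 that rose (median 0.66). Both lines together, 9 members fell in both and 5 rose in both (32.1% and 17.9% of the members), where 17.5% and 16.9% of all genes did. No member was called in opposite directions in the 2 lines, and the share of all genes so called was not counted. Estimates of opposite sign, not called in both lines, were those of HSD17B7 (0.25 in AGS and -0.33 in MKN45), SREBF1 (0.15 and -0.27), MVK, INSIG1, EBP and CYP51A1. The median shift moved the median change of all genes to 0.15 in AGS and 0.27 in MKN45. Measured against those medians, the sterol medians were -0.62 and -0.31 with it and -0.64 and -0.31 without it. With it, 9 sterol genes fell in AGS and 2 in MKN45, 70.3% and 84.8% of all calls were rises in place of 46.7% and 49.8%, and no called gene of either branch had another sign. Among the members, 8 calls in MKN45 (HMGCS1, MVD, FDPS, NSDHL, DHCR7, ACAT2, ACACA and FASN) and 3 in AGS (PMVK, EBP and INSIG1) were lost with it, and the change of SCAP in MKN45 passed (0.45, adjusted p = 0.0459).

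**Figure D1:**
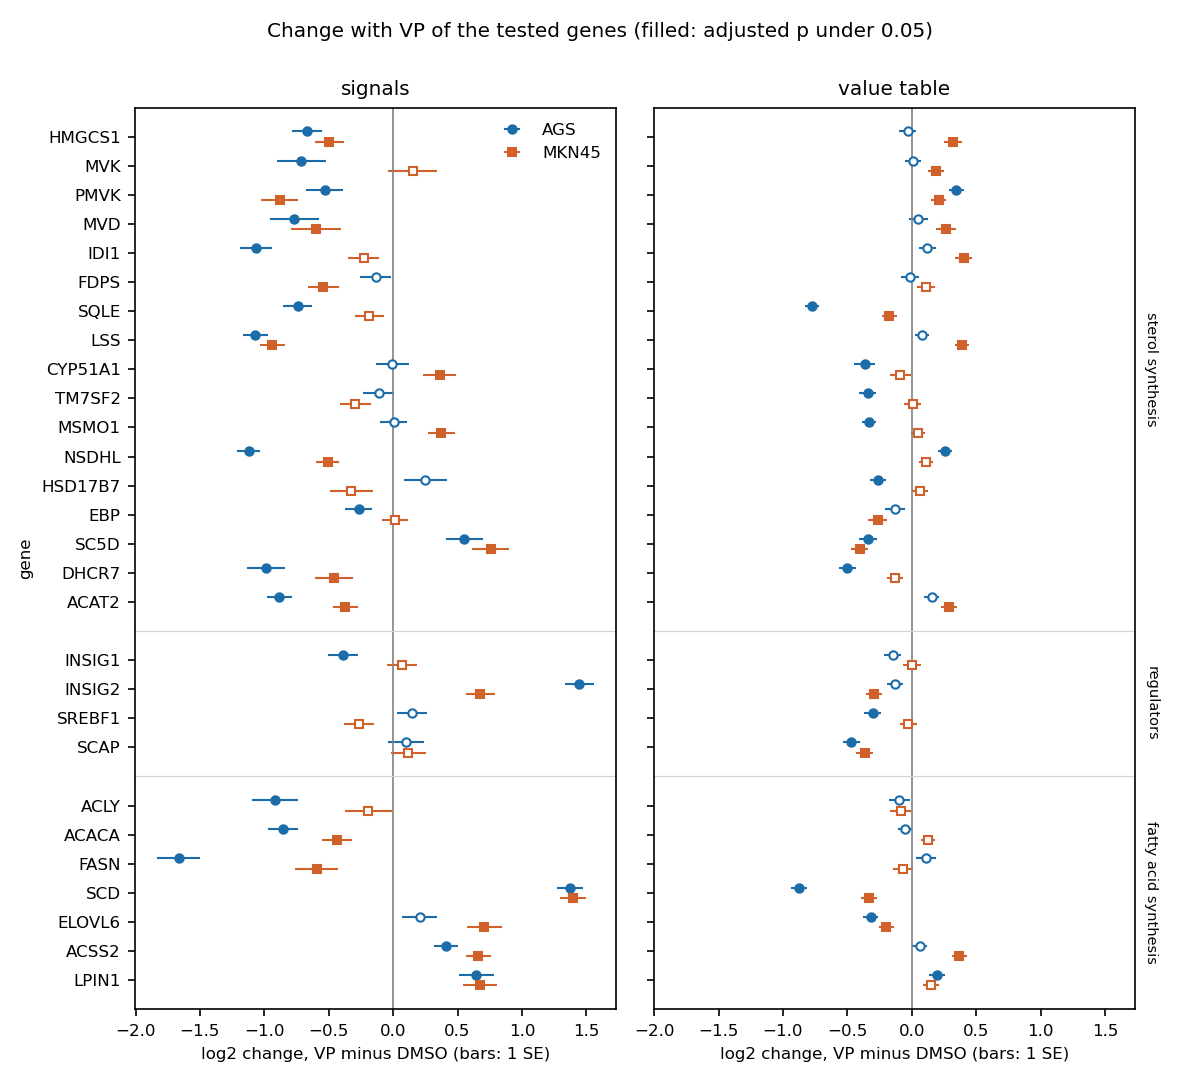
Log2 change with VP, with its standard error, of the 28 tested genes in the signals (left) and in the value table (right). Circles are AGS and squares MKN45, filled where the adjusted p was under 0.05. Most sterol genes lie left of 0 in the signals, SCD lies at 1.38 and 1.40 there and at -0.88 and -0.33 in the value table, and MVK was not above background in AGS with VP.

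The genes that control the branches did not move as 1 group. SCAP, the escort protein, read 8.80, 8.85 and 8.68 on the AGS DMSO arrays and 9.06, 8.96 and 8.61 with VP. The MKN45 arrays read 8.42, 8.15 and 8.63 with DMSO and 8.59, 8.52 and 8.44 with VP. The groups overlapped in both lines, and the log2 changes of 0.10 and 0.12 did not pass (adjusted p = 0.556 and 0.51). SREBF1, which encodes SREBP-1, read 8.03, 8.0 and 8.10 in AGS DMSO and 8.01, 8.13 and 8.43 in AGS VP, and 7.85, 7.75 and 7.81 in MKN45 DMSO and 7.66, 7.60 and 7.34 in MKN45 VP. Its changes of 0.15 and -0.27 did not pass either (adjusted p = 0.31 and 0.0837), although the MKN45 groups did not overlap and the change there passed without AGS VP replicate 3 (adjusted p = 0.0467). SREBF2, which encodes SREBP-2, was detected on 8 of the 12 arrays and was not tested, with mean levels of 6.09 and 6.18 in AGS and 5.69 and 5.72 in MKN45 with DMSO and VP. STARD4, a carrier of cholesterol between membranes, was detected on 0 arrays.

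The 2 INSIG genes, which encode the anchors that hold SCAP back, differed. INSIG2 read 8.81, 8.51 and 8.70 in AGS DMSO and 10.22, 10.05 and 10.08 in AGS VP. In MKN45 it read 8.40, 8.09 and 8.27 with DMSO and 8.86, 9.06 and 8.86 with VP. All VP arrays lay above all DMSO arrays of their line, and INSIG2 rose by 1.45 in AGS (standard error 0.11, adjusted p = 2.46e-07) and 0.68 in MKN45 (standard error 0.11, adjusted p = 0.000319). INSIG1, which is itself a target of the SREBPs, read 8.56, 8.33 and 8.30 in AGS DMSO and 8.07, 8.10 and 7.86 in AGS VP, with no overlap. It fell by 0.39 in AGS (adjusted p = 0.011), which did not pass without AGS DMSO replicate 1 (adjusted p = 0.0544) or with the median shift (-0.16, adjusted p = 0.522). In MKN45 it read 8.56, 8.63 and 8.33 with DMSO and 8.48, 8.55 and 8.69 with VP, a change of 0.068 that did not pass (adjusted p = 0.657). A dimmer INSIG1 probe, detected on 4 arrays, had 0.064 in AGS and rose by 0.64 in MKN45. That rise passed over all probes (adjusted p = 0.00317), so the MKN45 result depends on the probe.

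Within the sterol branch, the falls reached from the first steps to the last. HMGCS1, the synthase that condenses acetoacetyl-CoA with acetyl-CoA, read 9.58, 9.56 and 9.68 in AGS DMSO and 8.90, 8.80 and 9.11 in AGS VP. In MKN45 it read 10.04, 10.07 and 9.81 with DMSO and 9.44, 9.37 and 9.62 with VP. The groups did not overlap in either line. HMGCS1 fell by 0.67 (adjusted p = 0.000204) on the arrays named AGS and fell by 0.50 (adjusted p = 0.00285) on those named MKN45. PMVK, the phosphomevalonate kinase, read 8.40, 8.83 and 8.54 in AGS DMSO against 8.15, 8.23 and 7.80 in AGS VP. It read 8.53, 8.85 and 8.74 in MKN45 DMSO against 7.96, 7.84 and 7.67 in MKN45 VP. PMVK was lower on every VP array than on any DMSO array of its line and fell by 0.53 and fell by 0.88 (adjusted p = 0.00628 and 0.000248). MVD, the decarboxylase that makes isopentenyl diphosphate, read 7.24, 7.36 and 7.52 in AGS DMSO and 7.03, 6.48 and 6.30 in AGS VP, and 7.57, 7.09 and 7.0 in MKN45 DMSO and 6.82, 6.38 and 6.67 in MKN45 VP. Its groups did not overlap, and it fell by 0.77 in AGS (adjusted p = 0.00375) and fell by 0.60 in MKN45 (adjusted p = 0.0203). The MKN45 call was lost without MKN45 DMSO replicate 1 (adjusted p = 0.0951) and without MKN45 VP replicate 2 (adjusted p = 0.0938).

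IDI1, the isomerase that makes dimethylallyl diphosphate, read 8.80, 8.48 and 8.50 in AGS DMSO and 7.56, 7.48 and 7.55 in AGS VP. The MKN45 arrays read 8.95, 8.85 and 8.62 with DMSO and 8.76, 8.46 and 8.51 with VP. The AGS groups stood far apart and the MKN45 groups overlapped. IDI1 fell by 1.07 in AGS (standard error 0.12, adjusted p = 7.25e-06) and had -0.23 in MKN45 (adjusted p = 0.139). SQLE, the squalene monooxygenase that is a rate-limiting enzyme of the branch, read 9.99, 9.86 and 10.24 in AGS DMSO and 9.34, 9.31 and 9.22 in AGS VP, and 10.06, 9.90 and 9.94 in MKN45 DMSO and 9.87, 9.62 and 9.86 in MKN45 VP. It fell by 0.74 in AGS (adjusted p = 8.69e-05) and had -0.18 in MKN45 (adjusted p = 0.199). Its dimmer probe also fell in AGS, by 0.65 on the log2 scale, and had 0.067 in MKN45.

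LSS, the synthase that closes the rings to lanosterol, read 9.25, 9.30 and 9.19 in AGS DMSO and 8.15, 8.23 and 8.15 in AGS VP. The MKN45 arrays read 9.07, 8.81 and 9.02 with DMSO and 8.11, 8.03 and 7.95 with VP. The VP arrays of both lines were lower than every DMSO array. LSS fell by 1.07 in AGS, to 47.6% of the DMSO level, and fell by 0.94 in MKN45, to 52.2% (standard error 0.096 each, adjusted p = 8.33e-07 and 5.2e-06). NSDHL, a dehydrogenase of the removal of the C4 methyl groups, read 8.52, 8.42 and 8.50 in AGS DMSO and 7.29, 7.34 and 7.45 in AGS VP, and 8.63, 8.64 and 8.62 in MKN45 DMSO and 8.18, 8.02 and 8.17 in MKN45 VP. Without overlap, it fell by 1.12 (adjusted p = 2.7e-07) on the arrays named AGS and fell by 0.51 (adjusted p = 0.000445) on those named MKN45. SC5D, the desaturase of the late pathway, went the other way. It read 8.64, 8.18 and 8.52 in AGS DMSO and 8.86, 8.98 and 9.17 in AGS VP, and 8.90, 8.49 and 8.53 in MKN45 DMSO and 9.52, 9.41 and 9.27 in MKN45 VP. SC5D rose by 0.55 and 0.76 (adjusted p = 0.00492 and 0.000777), again with no overlap.

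Of the remaining sterol genes, DHCR7, the reductase of the last step of one arm, and ACAT2, the cytosolic thiolase of the first step, fell in both lines (by 0.98 and 0.46, and by 0.88 and 0.37, in AGS and MKN45). With the median shift the MKN45 changes of both did not pass (adjusted p = 0.628 and 0.886), and that of DHCR7 was also not called without MKN45 DMSO replicate 1 or 3 or MKN45 VP replicate 3 (adjusted p = 0.0951, 0.0709 and 0.0783). EBP, the sterol isomerase, fell by 0.27 in AGS (adjusted p = 0.042), a call lost with the median shift (adjusted p = 0.771) and without any one of AGS DMSO replicates 2 and 3, AGS VP replicates 2 and 3, MKN45 DMSO replicate 3 and MKN45 VP replicates 2 and 3 (adjusted p = 0.0515 to 0.174), and had 0.014 in MKN45. MVK, the mevalonate kinase, was detected on 2 of 3 AGS DMSO arrays and on 0 of 3 AGS VP arrays. It entered the tests through MKN45 VP, with 3 of 3 arrays detected. The AGS DMSO mean was 1.38-fold above the lowest level among detected probes of each AGS VP array. This is not a strict bound, since AGS DMSO replicate 3 (5.83) lay under the lowest detected level of its own array (5.94). The adjusted p of 0.00556 in AGS is that of the measured levels, which with VP were not detected. FDPS, the farnesyl diphosphate synthase, fell in MKN45 by 0.54. CYP51A1, the lanosterol demethylase, and MSMO1, the C4 methyl oxidase, rose there by 0.36 and 0.37. The dimmer MSMO1 probes had 0.91 and -0.0098 in MKN45 and 0.063 and 0.42 in AGS. Of these, 0.91 and 0.42 passed over all probes (adjusted p = 0.000508 and 0.0412), so the MSMO1 result depends on the probe. The fall of FDPS did not pass with the median shift (adjusted p = 0.391), and the rise of CYP51A1 did not pass without any one of MKN45 DMSO replicates 1, 2 and 3 or MKN45 VP replicates 1 and 3 (adjusted p = 0.0522 to 0.0947). TM7SF2 and HSD17B7, enzymes of late reductions, were not called in either line, although TM7SF2 passed in MKN45 without MKN45 DMSO replicate 2 or MKN45 VP replicate 1 (adjusted p = 0.0185 and 0.0383) and HSD17B7 did without MKN45 VP replicate 3 (adjusted p = 0.0258).

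Promoters of 4 of the genes that fell in both lines are shown as examples that hold the CCAAT box, the site of the factor NF-Y, which is known to act beside SREBPs at sterol genes. Each run is the 250 bases before the start that RefSeq gives on GRCh38.p14, 5′ to 3′ on the strand of the gene, with CCAAT, or ATTGG for the box on the other strand, in capitals. LSS lies on the minus strand at chr21:46228775-46229024, MVD on the minus strand at chr16:88663092-88663341, NSDHL on the plus strand at chrX:152830813-152831062 and HMGCS1 on the minus strand at chr5:43313413-43313662.
LSS: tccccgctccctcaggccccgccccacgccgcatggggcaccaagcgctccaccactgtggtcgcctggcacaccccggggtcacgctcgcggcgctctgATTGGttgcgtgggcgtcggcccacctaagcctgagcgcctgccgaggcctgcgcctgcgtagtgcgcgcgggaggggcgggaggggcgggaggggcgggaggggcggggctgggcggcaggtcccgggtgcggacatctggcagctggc
MVD: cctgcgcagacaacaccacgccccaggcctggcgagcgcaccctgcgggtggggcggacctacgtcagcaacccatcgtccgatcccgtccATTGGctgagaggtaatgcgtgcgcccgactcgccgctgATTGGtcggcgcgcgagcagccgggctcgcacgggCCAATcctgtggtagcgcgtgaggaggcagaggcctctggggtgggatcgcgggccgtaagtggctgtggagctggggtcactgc
NSDHL: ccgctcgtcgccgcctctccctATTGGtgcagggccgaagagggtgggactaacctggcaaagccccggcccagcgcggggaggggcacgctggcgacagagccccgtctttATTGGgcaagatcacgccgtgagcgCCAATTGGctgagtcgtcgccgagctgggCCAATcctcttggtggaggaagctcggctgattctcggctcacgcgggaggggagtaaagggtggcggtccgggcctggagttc
HMGCS1: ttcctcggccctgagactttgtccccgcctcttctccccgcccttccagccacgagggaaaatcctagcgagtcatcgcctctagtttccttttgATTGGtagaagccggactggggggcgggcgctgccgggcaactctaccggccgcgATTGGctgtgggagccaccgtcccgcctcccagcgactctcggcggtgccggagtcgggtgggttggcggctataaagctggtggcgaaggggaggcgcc
LSS had 1 box, MVD 3, NSDHL 5 and HMGCS1 2, counting both strands, and 1 forward and 1 reverse box of NSDHL overlap. Of the genes that fell in both lines, PMVK had no box in its promoter, and HMGCS1, DHCR7 and ACACA each had a further start with no box. Among the genes that rose in both lines, SCD and SC5D had a box at each start read. ACSS2 had it at one start and not at another, and INSIG2 and LPIN1 had none. Whether the box goes with the direction of the change was not tested. No promoter of ACAT2 or FASN was read. The table held 20 promoters of 15 sterol genes, of which 15 (75%) had CCAAT on either strand, against 32% of 35116 promoters of the same length. For the regulators it was 3 of 7 promoters and for the fatty acid genes 6 of 15. A sterol regulatory element of the form TCACNCCAC was in 0.883% of all promoters, in that of SREBF2 and in 0 of the 20 sterol and 15 fatty acid promoters. GGGCGG, the core of the GC box bound by Sp1, was in 42.6% of all promoters and in 18, 7 and 12 of the sterol, regulator and fatty acid promoters. The E-box CACGTG was in 6.34% of all and in 2, 2 and 0. A match is a description of these letters and not a measured site.

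In the fatty acid branch, FASN and ACACA, which make the chain, fell in both lines, and the desaturase SCD rose in both. FASN, the fatty acid synthase, read 11.18, 10.78 and 10.46 in AGS DMSO and 9.17, 9.05 and 9.21 in AGS VP. In MKN45 it read 10.58, 10.28 and 10.81 with DMSO and 10.07, 9.94 and 9.87 with VP. The groups did not overlap, and FASN fell by 1.66 in AGS, to 31.5% of the DMSO level (standard error 0.17, adjusted p = 2.24e-06). That was the lowest change of any member in the signals. In MKN45 it fell by 0.59 (adjusted p = 0.0102), which was not called without MKN45 DMSO replicate 3 (adjusted p = 0.0514) or with the median shift (adjusted p = 0.235). ACACA, the acetyl-CoA carboxylase that commits carbon to the branch, fell by 0.85 and fell by 0.44, and both of its kept probes were lower in both lines. Its MKN45 call was lost with the median shift (-0.10, adjusted p = 0.703). ACLY, which makes cytosolic acetyl-CoA from citrate, fell by 0.92 in AGS and had -0.19 in MKN45 (adjusted p = 0.407), which was -0.43 and passed without MKN45 DMSO replicate 2 (adjusted p = 0.031).

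SCD, the stearoyl-CoA desaturase that places the first double bond, read 10.99, 10.87 and 10.93 in AGS DMSO and 12.45, 12.28 and 12.18 in AGS VP. The MKN45 arrays read 11, 10.82 and 10.99 with DMSO and 12.43, 12.29 and 12.29 with VP. Every VP array was above every DMSO array. SCD rose by 1.38 in AGS and 1.40 in MKN45, to 2.60-fold and 2.64-fold (standard error 0.10 each, adjusted p = 1.19e-07 and 1.69e-07). ACSS2, which makes acetyl-CoA from acetate, read 9.53, 9.45 and 9.60 in AGS DMSO and 9.99, 9.86 and 9.96 in AGS VP, and 9.28, 9.02 and 9.07 in MKN45 DMSO and 9.78, 9.79 and 9.79 in MKN45 VP. It rose by 0.41 and 0.66 without overlap (adjusted p = 0.00228 and 9.07e-05). LPIN1, a phosphatidate phosphatase that also acts as a transcriptional coregulator, read 8.22, 8.16 and 8.37 in AGS DMSO and 8.70, 8.87 and 9.13 in AGS VP, and 7.87, 8.29 and 8.31 in MKN45 DMSO and 8.82, 8.80 and 8.88 in MKN45 VP. It rose by 0.65 and 0.67 (adjusted p = 0.00105 and 0.00114), again with no overlap.

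ELOVL6, an elongase of saturated chains, read 8.63, 8.13 and 8.58 in AGS DMSO and 8.57, 8.54 and 8.86 in AGS VP, which overlapped. In MKN45 it read 8.94, 8.98 and 8.99 with DMSO and 9.78, 9.55 and 9.69 with VP and rose by 0.71 (adjusted p = 0.00084). The AGS change of 0.21 did not pass (adjusted p = 0.211). Its dimmer probe gave 0.36 in AGS, which passed over all probes (adjusted p = 0.011), so the AGS result depends on the probe. The desaturase genes FADS1 and FADS2 were detected on 0 of the 12 arrays. Of 9 genes with over 1 kept probe, the probes had 1 sign in both lines for 6.

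**Figure D2:**
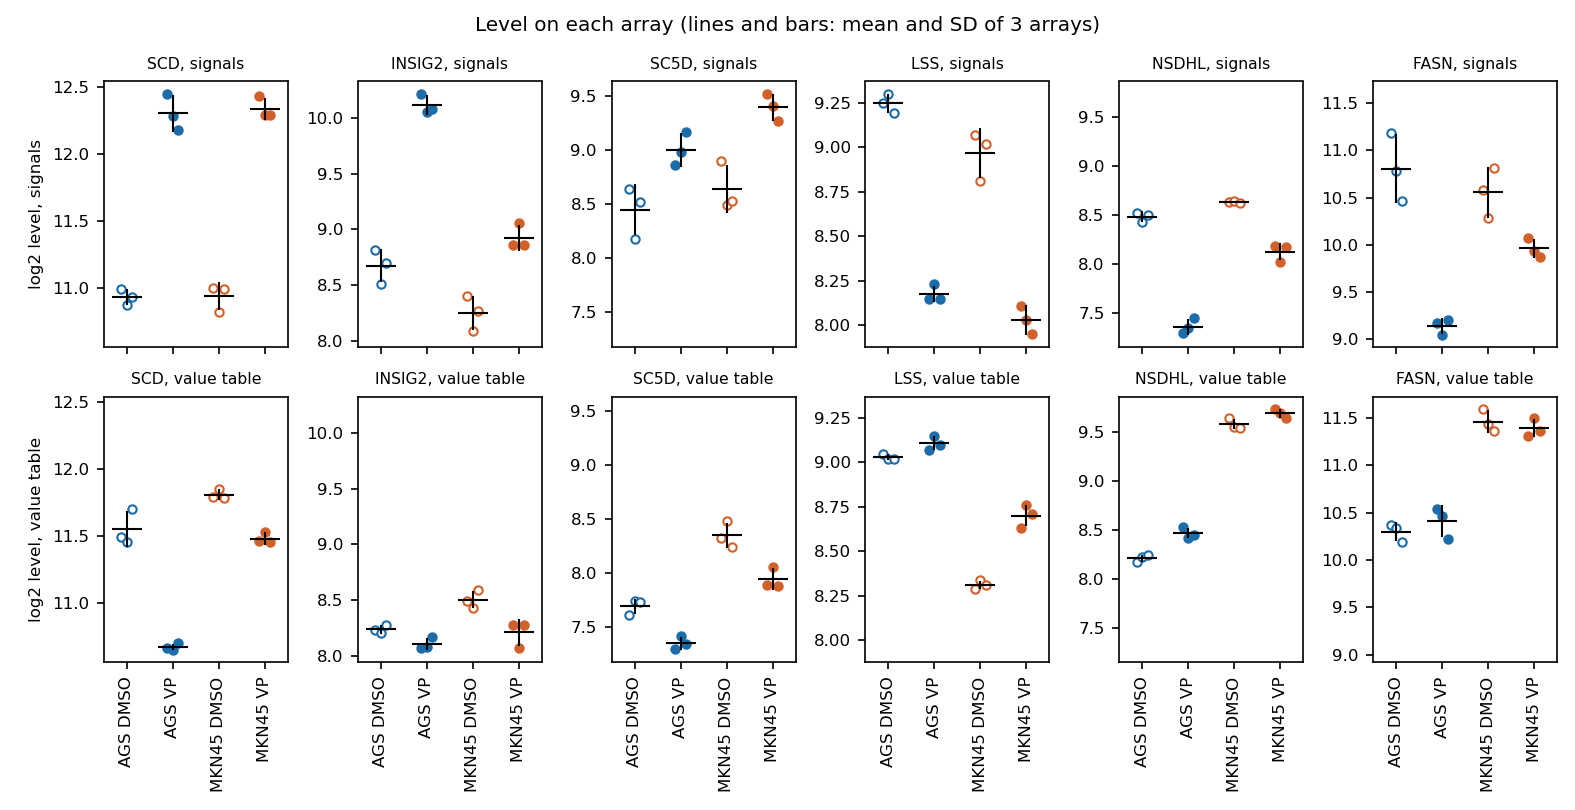
Log2 level on each of the 3 arrays of each group (open with DMSO, filled with VP, blue for AGS and orange for MKN45) for 6 genes, in the signals (top) and in the value table (bottom), with the mean and SD. Panels of a gene share the y axis, although the lines of the value table are not on one scale. In both lines SCD and SC5D rose in the signals and fell in the value table. INSIG2 rose and LSS and NSDHL fell in both lines of the signals, and in the value table INSIG2 fell and LSS rose in MKN45 alone and NSDHL rose in AGS alone.

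The value table gave smaller changes for most of the same genes, many of them in the other direction. Larger changes there were, for example, those of SCAP in both lines and of CYP51A1, TM7SF2 and MSMO1 in AGS. In AGS, 7 of the 17 sterol genes fell and 2 rose there, with a median of -0.032. In MKN45, 3 fell and 7 rose, with a median of 0.11. The background in that table was 14.1% of all genes falling and 16.1% rising in AGS, and 10.7% falling and 11% rising in MKN45. Of the fatty acid genes, 2 fell and 1 rose in each line, with medians of -0.052 and -0.071, and of the 4 regulators 2 fell in each. Over all members, AGS had 11 that fell and 3 that rose, and MKN45 had 7 that fell and 8 that rose. In both lines together 5 members fell and 1 rose (17.9% and 3.57%), where 6.82% and 4.1% of all genes did.

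SCD had the lowest change of the members in AGS in the value table. It read 11.49, 11.45 and 11.70 in AGS DMSO and 10.66, 10.65 and 10.70 in AGS VP, and 11.79, 11.85 and 11.78 in MKN45 DMSO and 11.46, 11.53 and 11.45 in MKN45 VP. The groups did not overlap, and SCD fell by 0.88 and fell by 0.33 (adjusted p = 2.18e-11 and 0.000302), opposite to the signals. SQLE read 10.21, 10.26 and 10.21 in AGS DMSO and 9.49, 9.36 and 9.51 in AGS VP, and 9.37, 9.36 and 9.44 in MKN45 DMSO and 9.25, 9.22 and 9.18 in MKN45 VP. It fell by 0.77 in AGS (standard error 0.056, adjusted p = 3.79e-11), close to the 0.74 by which it fell in the signals, and fell by 0.17 in MKN45 (adjusted p = 0.0271), a call lost without MKN45 DMSO replicate 3, MKN45 VP replicate 2 or MKN45 VP replicate 3 (adjusted p = 0.104, 0.0622 and 0.101). SC5D read 7.61, 7.74 and 7.73 in AGS DMSO and 7.30, 7.42 and 7.35 in AGS VP, and 8.33, 8.48 and 8.24 in MKN45 DMSO and 7.89, 8.06 and 7.88 in MKN45 VP. It fell by 0.34 and fell by 0.40 (adjusted p = 0.000312 and 6.1e-05).

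Among the regulators, SCAP read 9.22, 9.24 and 9.20 in AGS DMSO and 8.74, 8.78 and 8.74 in AGS VP, and 9.37, 9.34 and 9.09 in MKN45 DMSO and 8.85, 9.0 and 8.85 in MKN45 VP. It fell in the value table by 0.47 and fell by 0.37 (adjusted p = 4.42e-06 and 0.00018), with no overlap. SREBF1 fell by 0.30 in AGS (adjusted p = 0.00123) and had -0.026 in MKN45, and INSIG2 fell by 0.29 in MKN45 (adjusted p = 0.00129) and had -0.13 in AGS (adjusted p = 0.12). INSIG1 was not called in either line, at -0.15 and 0.0017, and passed in AGS without AGS DMSO replicate 2 or AGS VP replicate 3 (adjusted p = 0.027 and 0.0472). ELOVL6 read 9.33, 9.28 and 9.31 in AGS DMSO and 9.04, 8.92 and 9.01 in AGS VP, and 9.65, 9.68 and 9.56 in MKN45 DMSO and 9.47, 9.40 and 9.43 in MKN45 VP. ELOVL6 fell by 0.32 (adjusted p = 8.69e-05) in AGS cells and fell by 0.20 (adjusted p = 0.0122) in MKN45 cells, the latter call being lost without MKN45 DMSO replicate 2 or MKN45 VP replicate 2 (adjusted p = 0.0612 and 0.0526). SREBF2, above the background of that table on 8 arrays, read 6.62 to 6.75 with DMSO and 6.73 to 6.91 with VP in AGS, and 6.66 to 6.85 with DMSO and 6.73 to 6.82 with VP in MKN45. FADS1 read 6.36 to 6.56 in AGS and 7.68 to 7.94 in MKN45, where it was above the background of the table on all 6 arrays.

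The sterol genes of the value table moved both ways, PMVK being the 1 that rose in both lines. PMVK read 8.14, 8.29 and 8.21 in AGS DMSO and 8.60, 8.52 and 8.56 in AGS VP, and 7.58, 7.67 and 7.75 in MKN45 DMSO and 7.84, 7.88 and 7.92 in MKN45 VP. It rose by 0.35 and 0.21 (adjusted p = 6.13e-05 and 0.0113), the MKN45 call being lost without MKN45 DMSO replicate 1 or MKN45 VP replicate 3 (adjusted p = 0.0744 and 0.0564). In MKN45, HMGCS1, MVK, MVD, IDI1 and ACAT2 rose with it, by 0.19 (MVK) to 0.40 (IDI1), and so did LSS, by 0.39. The call of MVD was lost without MKN45 DMSO replicate 2 or 3 or MKN45 VP replicate 2 (adjusted p = 0.06, 0.0706 and 0.0891), and that of MVK without any one of MKN45 DMSO replicates 2 and 3 and MKN45 VP replicates 1 and 3 (adjusted p = 0.0641 to 0.175). In AGS, HMGCS1, MVK, MVD, IDI1, FDPS, ACAT2 and LSS were not called, at -0.032 to 0.15, although ACAT2 passed without AGS VP replicate 1 (adjusted p = 0.0275), and NSDHL rose by 0.26. The genes that fell in AGS were SQLE, CYP51A1, TM7SF2, MSMO1, HSD17B7, SC5D and DHCR7, by 0.26 (HSD17B7) to 0.77 (SQLE) on the log2 scale. EBP had -0.13 in AGS (adjusted p = 0.21) and fell by 0.27 in MKN45, a call lost without MKN45 DMSO replicate 1 or 2 (adjusted p = 0.081 and 0.0611). In MKN45, FDPS, CYP51A1, TM7SF2, MSMO1, NSDHL, HSD17B7 and DHCR7 were not called.

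Set side by side, 7 members passed in both tables in AGS, of which 3 moved the same way, and 10 did in MKN45, of which 1 did. Over all genes, the shares that moved the same way were 39.7% of 1746 and 38.2% of 1104. The 3 of AGS were SQLE (-0.74 in the signals, -0.77 in the value table), DHCR7 (-0.98 and -0.50, read by different probes) and LPIN1 (0.65 and 0.20). The call of LPIN1 in the value table was lost without AGS DMSO replicate 2 or AGS VP replicate 3 (adjusted p = 0.0959 and 0.0727). In MKN45 only ACSS2 did (0.66 and 0.37). The members that moved in opposite ways in AGS were PMVK, NSDHL, SC5D and SCD. In MKN45 they were HMGCS1, PMVK, MVD, LSS, SC5D, ACAT2, INSIG2, SCD and ELOVL6. FASN, the lowest member of AGS in the signals, was called in neither line of the value table (AGS change 0.11, adjusted p = 0.303; MKN45 change -0.071, adjusted p = 0.581), and without AGS VP replicate 3 its AGS change was 0.21 and passed (adjusted p = 0.0424).

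**Figure D3:**
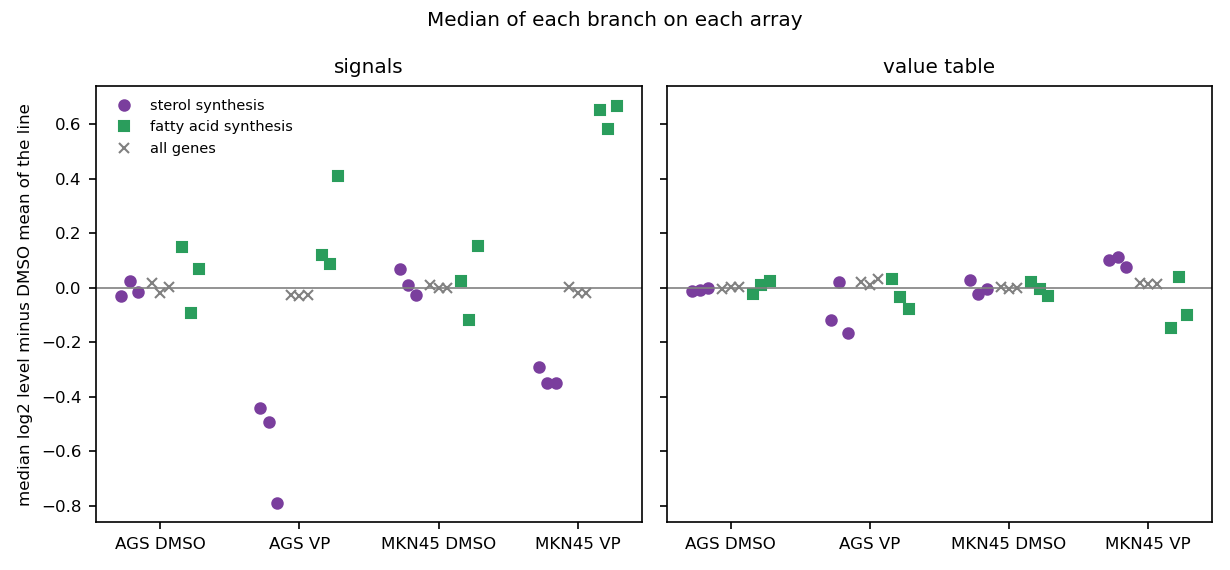
Median, over the tested genes of a branch, of the log2 level on each array relative to the DMSO mean of its line. In the signals the 3 VP arrays lie between -0.79 and -0.44 for the sterol genes in AGS and between -0.35 and -0.29 in MKN45, and the fatty acid genes at 0.58 to 0.67 in MKN45 VP. All medians of the value table lie between -0.17 and 0.11.

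The branch medians were also taken on each array of the signals. The sterol median lay at -0.44, -0.49 and -0.79 on the AGS VP arrays and at -0.29, -0.35 and -0.35 on the MKN45 VP arrays, relative to the DMSO mean of the line, and DMSO arrays lay between -0.029 and 0.069. The fatty acid median lay at 0.12, 0.087 and 0.41 on the AGS VP arrays, which overlapped the DMSO arrays at -0.093 to 0.15, and at 0.65, 0.58 and 0.67 on the MKN45 VP arrays. Over 7 genes that moved both ways, that median is the value of a single gene.

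The VP change itself was compared between the lines by an interaction term. In the signals it was called for 6 of the 28 members (21.4%, where 11.2% of all genes were called). The log2 change in AGS minus that in MKN45 was -0.61 for NSDHL, -0.84 for IDI1, -0.51 for ACAT2 and -0.56 for SQLE among the sterol genes, -1.07 for FASN and 0.77 for INSIG2 (adjusted p = 0.00849, 0.00866, 0.0305, 0.0394, 0.0121 and 0.0091). AGS thus had the lower change for 5 of the 6. Over all members the AGS change was the lower one in 78.6%, with a median difference of -0.27, against 53.7% and -0.032 over all genes. SCD had a difference of -0.024 (standard error 0.14), SCAP of -0.017 (standard error 0.19), LPIN1 of -0.026 (standard error 0.19) and LSS of -0.13 (standard error 0.14), none of which passed.

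In the value table, 9 of the 28 members differed in their VP change (32.1%, where 11.7% of all genes were called), all with the lower change in AGS. They were SQLE (-0.60), SCD (-0.55), MSMO1 (-0.38), DHCR7 (-0.37), HMGCS1 (-0.35), TM7SF2 (-0.35), HSD17B7 (-0.33), LSS (-0.31) and ACSS2 (-0.31). SQLE was the member called in both tables. Its difference was -0.56 with a standard error of 0.16 in the signals and -0.60 with a standard error of 0.080 in the value table. Which line the arrays of the signals labelled MKN45 came from was not tested beyond the marker check above.

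**Figure D4:**
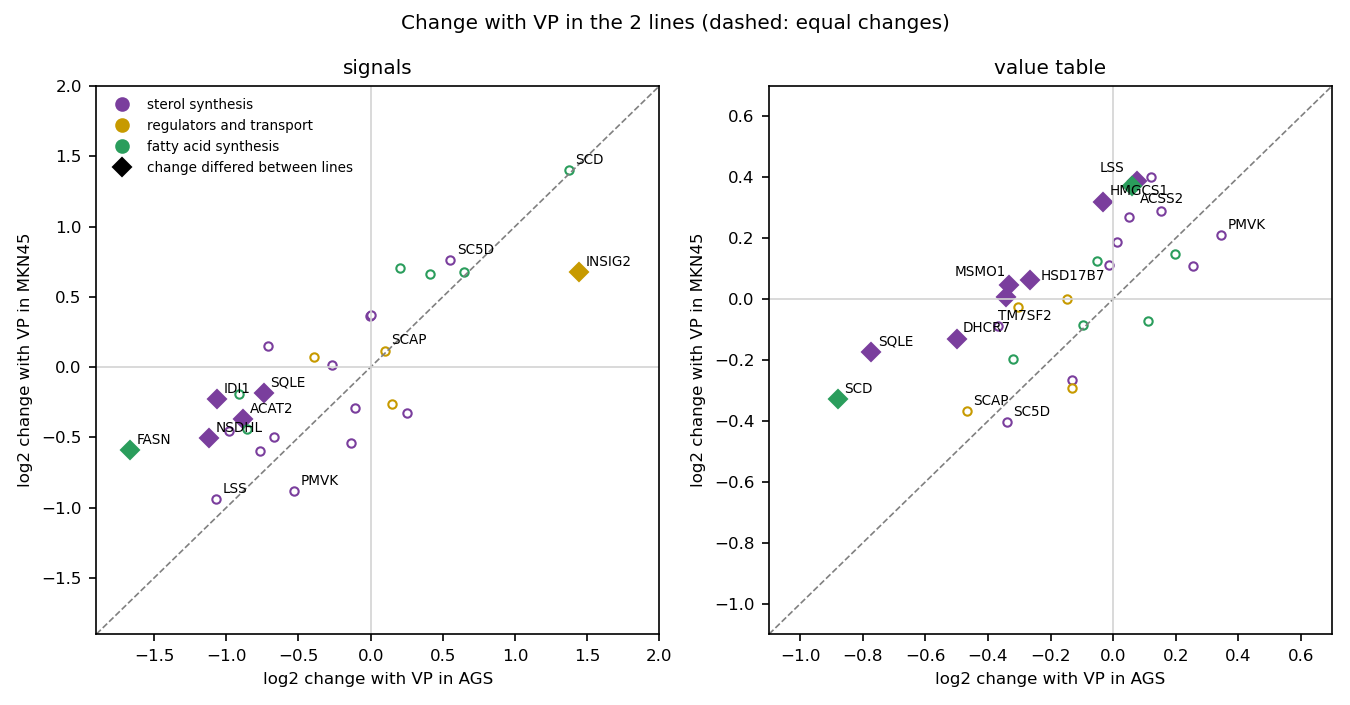
Log2 change with VP in AGS (x axis) against that in MKN45 (y axis) for the 28 tested genes in the signals (left) and the value table (right), coloured by branch. Diamonds mark the 6 members of the left panel and the 9 of the right panel whose change differed between the lines, and changes are equal on the dashed line.

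With DMSO alone, 5 of the 28 members differed between the lines in the signals, a share near the 18.5% of all genes. With the median shift the count was 2. ELOVL6, CYP51A1 and HMGCS1 were lower in AGS DMSO than in MKN45 DMSO (log2 differences of -0.52, -0.41 and -0.37), and INSIG2 and ACSS2 were higher (0.42 and 0.40). SCD did not differ beyond the spread between arrays (10.93 ± 0.059 in AGS DMSO and 10.94 ± 0.10 in MKN45 DMSO, SD, n = 3). The count was 2 without any one of AGS DMSO replicates 1, 2 and 3 or MKN45 DMSO replicate 2, and 3 without MKN45 DMSO replicate 1. This comparison was not made in the value table.

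Other lipid genes were taken from lists chosen with earlier results of these data known. Their counts are read against the shares of all genes in the signals given above (26.3% rose and 30% fell in AGS, 22.9% and 23.1% in MKN45) and in the value table (16.1% and 14.1%, and 11% and 10.7%). Of 8 tested genes of fatty acid oxidation, 6 rose in AGS (75%, median 0.47) and 7 rose in MKN45 (87.5%, median 0.60) in the signals, and 0 fell. CPT1A, which makes the carnitine ester that enters mitochondria, rose by 1.05 and 0.88 (adjusted p = 8.2e-07 and 7.64e-06). The value table called 0 of the 8 in AGS, while in MKN45 it had 2 that rose and 1, CPT1A, that fell by 0.19, a call lost without MKN45 DMSO replicate 3 (adjusted p = 0.0691). Of 6 genes of glycerolipid synthesis and lipid droplets, AGS had 5 that rose (83.3%) and 1 that fell (16.7%), and MKN45 had 4 that rose (66.7%) and 1 that fell (16.7%). LPIN2, a phosphatidate phosphatase, rose by 1.93 and 1.92, GPAM, the first acyltransferase, fell by 0.73 in AGS. PLIN2, a coat protein of droplets, rose by 0.45 on the arrays named AGS and fell by 0.58 on those named MKN45. The rise was not called without any one of AGS DMSO replicates 1 and 3, AGS VP replicates 2 and 3 and MKN45 VP replicate 3 (adjusted p = 0.0502 to 0.186). The fall was not called without MKN45 DMSO replicate 1 or MKN45 VP replicate 1 (adjusted p = 0.0678 and 0.0768) or with the median shift (adjusted p = 0.105). Of these 6 genes, the value table had 2 that fell in AGS, 3 that fell in MKN45 and 0 that rose.

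Of 11 genes of sterol trafficking and storage in the signals, AGS had 3 that rose and 3 that fell (27.3% each), and MKN45 had 2 that rose (18.2%) and 1 that fell (9.09%), shares that in AGS lay near those of all genes. NPC1, which moves cholesterol out of lysosomes, rose by 1.48 and 1.79, and SOAT1, which esterifies it, rose by 0.72 and 0.79. TMEM97, a sterol-responsive membrane protein, fell by 1.36 in AGS, and in MKN45 it fell by 0.45, which was not called with the median shift (adjusted p = 0.539). Of the 11 genes, the value table had 7 that fell in AGS, 4 that fell in MKN45 and 0 that rose, among them NPC1, which fell by 0.89 and fell by 0.63 there (adjusted p = 3.05e-12 and 4.3e-09), and LIPA, the lysosomal acid lipase, which fell by 0.88 and fell by 0.55. TMEM97 fell in AGS in both tables, by 0.46 in the value table.

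The proteases that cleave the SREBPs in the Golgi were called in every test. MBTPS2, the site-2 protease, rose by 0.78 and 0.60 in the signals and fell by 0.58 and fell by 0.42 in the value table. MBTPS1, the site-1 protease, fell by 0.35 and fell by 0.26 in the signals and fell by 0.49 and fell by 0.23 in the value table (adjusted p = 0.00829, 0.0452, 3.03e-07 and 0.00514), so it fell in both lines of both tables. With the median shift its calls in the signals were lost and MKN45 had a change of 0.086 (adjusted p = 0.535 and 0.748), and the MKN45 call was also lost without any one of 7 arrays (adjusted p = 0.0505 to 0.148). Of 10 genes of nonsterol isoprenoid use in the signals, AGS had 5 that fell (50%) and 2 that rose (20%), and MKN45 had 3 that fell (30%) and 2 that rose (20%), and the MKN45 shares lay near those of all genes. ICMT, the methyltransferase of prenylated proteins, fell by 0.82 and fell by 0.85 in the signals and fell by 0.18 and fell by 0.25 in the value table, where the AGS call was lost without AGS DMSO replicate 2 (adjusted p = 0.0715). GGPS1, the geranylgeranyl diphosphate synthase, rose by 0.43 and 0.35 in the signals and by 0.32 in MKN45 in the value table.

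Of 10 genes of elongation, activation and supply of fatty acids in the signals, AGS had 6 that rose (60%) and 2 that fell (20%), and MKN45 had 4 that rose (40%) and 2 that fell (20%). ACSL5 and ACSL1, long-chain acyl-CoA synthetases, rose by 1.66 and 0.69 and by 0.88 and 1.04, the MKN45 call of ACSL5 being lost without MKN45 DMSO replicate 1 or MKN45 VP replicate 2 (adjusted p = 0.0644 and 0.051). PGD, an enzyme of the pentose phosphate pathway that makes NADPH, fell by 0.89 and fell by 0.33 in the signals and rose by 0.19 and 0.42 in the value table. Its MKN45 call in the signals was lost with the median shift (adjusted p = 0.892) and without MKN45 DMSO replicate 1 or MKN45 VP replicate 2 (adjusted p = 0.0689 and 0.0626), and its AGS call in the value table without AGS DMSO replicate 1 or AGS VP replicate 2 (adjusted p = 0.141 and 0.0946). MID1IP1, an activator of acetyl-CoA carboxylase, rose in both lines of both tables, by 0.60 and 0.50 and by 0.22 and 0.21. In the value table its AGS call was lost without AGS DMSO replicate 2 (adjusted p = 0.0636), and its MKN45 call without MKN45 DMSO replicate 1 or MKN45 VP replicate 3 (adjusted p = 0.113 and 0.115).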

How the data were processed

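Per the labels and the methods, RNA of the 12 samples was read on Illumina HumanHT-12 V4 arrays, and the submitters' processing notes name GenomeStudio, whose version is not given in the sources used here. The authors deposited an intensity per probe on a linear scale and a detection p-value, which compares it with negative controls. Whether background had been subtracted before is not given. The authors also deposited log2 values, quantile normalized within each line. The series that the methods cite for the paper's arrays is another one.

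Samples were grouped by their labels. Background correction of the intensities used the detection p-values (neqc of limma 3.58.1 in R 4.3.3, offset 16), quantile normalized over 12 arrays and log2 transformed. The kept probe with the highest mean stood for its gene. The value table used the same 16021 kept probes and its own brightest probe, which was another for 243 genes, and its last row of linear values was left out. Of all probes, 30113 had 1 symbol, 8 several and 17202 none. Entrez identifiers of 30074 probes matched RefSeq, which changed 0 symbols. The 4 groups were fitted in 1 limma model with Benjamini-Hochberg adjustment over 9696 genes, and the fit was tested on simulated data. A probe of the value table counted as above background where it passed the 0.99 quantile of the background of that table. The number of arrays limits the precision.

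The members and lists were chosen with earlier results of these data known. Values on each array were given for the regulators, for up to 6 rising and 6 falling members called in both lines of a table, and for up to 4 members whose change differed most clearly between lines.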

Additional observations from a re-analysis of the deposited data

Results flagged for a closer look

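The log2 change with VP differed between AGS and MKN45, by the interaction test with adjustment over all genes, for 6 members in the signals. The AGS change minus the MKN45 change was -0.84 for IDI1, -0.56 for SQLE, -0.61 for NSDHL, -0.51 for ACAT2, 0.77 for INSIG2 and -1.07 for FASN. In the value table the same test singled out 9 members, with differences of -0.35 for HMGCS1, -0.60 for SQLE, -0.31 for LSS, -0.35 for TM7SF2, -0.38 for MSMO1, -0.33 for HSD17B7, -0.37 for DHCR7, -0.55 for SCD and -0.31 for ACSS2. In the signals these values stand beside the small difference of MET between the columns named AGS and MKN45, and the part of that in them was not tested.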

How the results depend on the processing

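In the signals, 20 members were called in AGS and 18 in MKN45, 6 differed in their VP change and 5 differed with DMSO. With a median shift in place of quantiles these were 17 in AGS, 11 in MKN45, 3 and 2. Of the 9696 genes tested, 2972 rose and 1255 fell in AGS with it, and 3365 rose and 601 fell in MKN45. The 11 of 28 members called in MKN45 lay near that share of all genes. Medians with this shift were -0.47 (sterol) and 0.41 (fatty acid) in AGS and -0.043 and 0.996 in MKN45. Without background correction the sterol median in AGS was -0.41 and the fatty acid median in MKN45 0.53. With no detection filter, which adds undetected probes, the fatty acid median was 0.050 in AGS and -0.080 in MKN45, and 3 members differed with DMSO. At an unadjusted p under 0.001, 11 were called in MKN45 and 1 differed with DMSO. In the value table, 14 and 15 members were called in AGS and MKN45 and 9 differed in their change. With names as deposited, 9 were called in MKN45 and its sterol median was 0.041, and changes had the other sign for SREBF1 (0.12), SCAP (0.15), SCD (0.058) and LPIN1 (-0.195) in AGS and SCAP (0.074), SC5D (0.0063) and PMVK (-0.067) in MKN45. The rows before row 21197 alone, which hold 15 members, gave 4, 7 and 4. With the probe used in the signals, the fatty acid median in MKN45 was 0.023. At an unadjusted p under 0.001, 9 were called in MKN45. A plain t-test with pooled variance, which is not the random variance test that the methods name, was also run. After Benjamini-Hochberg it called 9 and 4 in the value table and 15 and 13 in the signals. At an unadjusted p under 0.001 it called 4 and 2, and 6 and 4.

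With each array left out in turn, 19 to 20 members were called in AGS and 15 to 19 in MKN45 in the signals, and 14 to 15 and 11 to 15 in the value table. The VP change differed for 4 to 6 and 7 to 11, and 2 to 6 differed with DMSO. Sterol medians were -0.68 to -0.62 and -0.37 to -0.31 in the signals and -0.088 to -0.022 and 0.081 to 0.14 in the value table. Fatty acid medians were 0.046 (without AGS DMSO replicate 2) to 0.30 and 0.53 to 0.66 in the signals and -0.071 to -0.0012 and -0.13 to -0.0037 in the value table.

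The labels do not say whether replicate numbers pair the samples, and the main fit did not pair them. Same-numbered arrays of a line deviated together at -0.096 to 0.21 in the signals and -0.046 to 0.12 in the value table. Arrays of unlike number were not compared in this way, so these values cannot decide whether samples were paired. With the replicate number as a block, 19 and 18 members were called in the signals and 14 and 15 in the value table, and 8 and 10 differed in their change.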
